A study of Mus musculus with 10 samples.

Results

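Of the 1629 regions that carried more H3K9ac 24 h after the start of adipocyte differentiation than at another time, 346 (21.2%) lay near a binding site of the glucocorticoid receptor (GR). These 346 regions are described here. They were chosen from the deposited lists as the H3K9ac 24 h regions with a GR 6 h peak at a gap under 1000 bp, overlap included. The choice thus used the positions of the H3K9ac 24 h regions and of the GR peaks, so the values of those lists are given below as descriptions. C/EBPβ was not used in the choice.

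H3K9ac, acetylation of histone H3 at lysine 9, marks active enhancers and promoters. GR is a nuclear receptor that moves into the nucleus and binds DNA once a glucocorticoid is bound, and synthetic glucocorticoids such as dexamethasone are part of common adipogenic hormone mixtures. C/EBPβ is a basic leucine zipper factor that is among the first transcription factors to act when preadipocytes differentiate, ahead of PPARγ and C/EBPα.

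The study profiled chromatin from 3T3-L1 cells, a mouse preadipocyte line that turns into adipocytes in culture, by chromatin immunoprecipitation and sequencing. GR was profiled 6 h after induction with a pair of antibodies, C/EBPβ at 6 h and in undifferentiated cells (0 h), and H3K9ac at 0, 24 and 240 h. Beyond a standard protocol, the sources used here do not give the agents used for induction. The lists held 4007 GR peaks, 20746 C/EBPβ peaks at 6 h, 10359 at 0 h, and 4429, 1629 and 7845 H3K9ac regions at 0, 24 and 240 h. The H3K9ac regions were all outside transcription start sites and called by the authors as enriched relative to another time.

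Each list came from 1 library whose depth is unknown, which leaves no replicate error and no p-value between libraries. The range after a share is its 95% Wilson interval, and the range after a difference of shares its 95% Newcombe interval. They cover counting error only and describe these lists, not the spread between cultures. Peak height and average read count are read signals as the authors gave them. A site that a list leaves out may still carry signal, and the lowest listed height was 12 reads in all 3 factor lists. None of the 346 regions overlapped the 6 regions of input bias that the authors listed.

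The GR peak lay within the acetylated region or across its edge in most cases. Of the 346 regions, 267 (77.2%, 72.5 to 81.3%) overlapped a GR peak and 79 lay beside one. Over all 383 pairs of a region and a GR peak, 285 overlapped, and the 98 that did not had a median gap of 445 bp. The regions closest to the limit on either side overlapped in their H3K9ac values. The 3 regions just inside it had gaps of 948, 959 and 992 bp and average read counts of 9, 10 and 10. The 3 just outside it had gaps of 1022, 1032 and 1058 bp and average read counts of 10, 8 and 11.

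A single GR peak per region was the rule. Of the 346 regions, 312 had 1 GR peak, 31 had 2 and 3 had 3, so that 34 (9.83%, 7.12 to 13.4%) had several. In these 34 regions the 37 neighbouring GR centres were 287 to 5109.5 bp apart, with a median of 1119 bp. The median height was 30 reads for the highest GR peak of such a region and 14.5 reads for the second, and in 13 of the 34 the highest was at least 2-fold the second.

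The 34 regions with several GR peaks were also wider. Their median width was 2125 bp, against 1700 bp for the 312 regions with 1 GR peak. A wider region more easily meets several GR peaks, so this split itself favours width. A listed FDR of 0, the authors' most stringent step for the H3K9ac call, was held by 47.1% of the 34 and 31.7% of the 312. A C/EBPβ site of undifferentiated cells was listed near 17 of the 34 (50%) and 77 of the 312 (24.7%), and C/EBPβ at 6 h near 91.2% and 78.2%. These shares are descriptions without a test. Most C/EBPβ peaks near the regions lay on a GR peak, as given below, so each further GR peak can raise the share by construction.

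Conversely, some GR peaks lay near more than 1 region. The 346 regions drew on 345 GR peaks, 8.61% of the GR list, of which 307 were near 1 region and 38 near 2. A total of 9 GR peaks (2.61%) were centred in the interval between 2 acetylated regions under 1 kb apart. The highest of them, on chromosome 7, had 82 reads and was centred in a gap of 300 bp between its regions. Of these 9 peaks, 8 overlapped C/EBPβ at 6 h and 3 overlapped it at 0 h. The share of GR peaks so placed was 1.17% near 0 h regions and 1.69% near 240 h regions. These rest on 2 peaks near 0 h regions, 9 near 24 h regions and 3 near 240 h regions, and are given without a test.

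**Figure D1:**
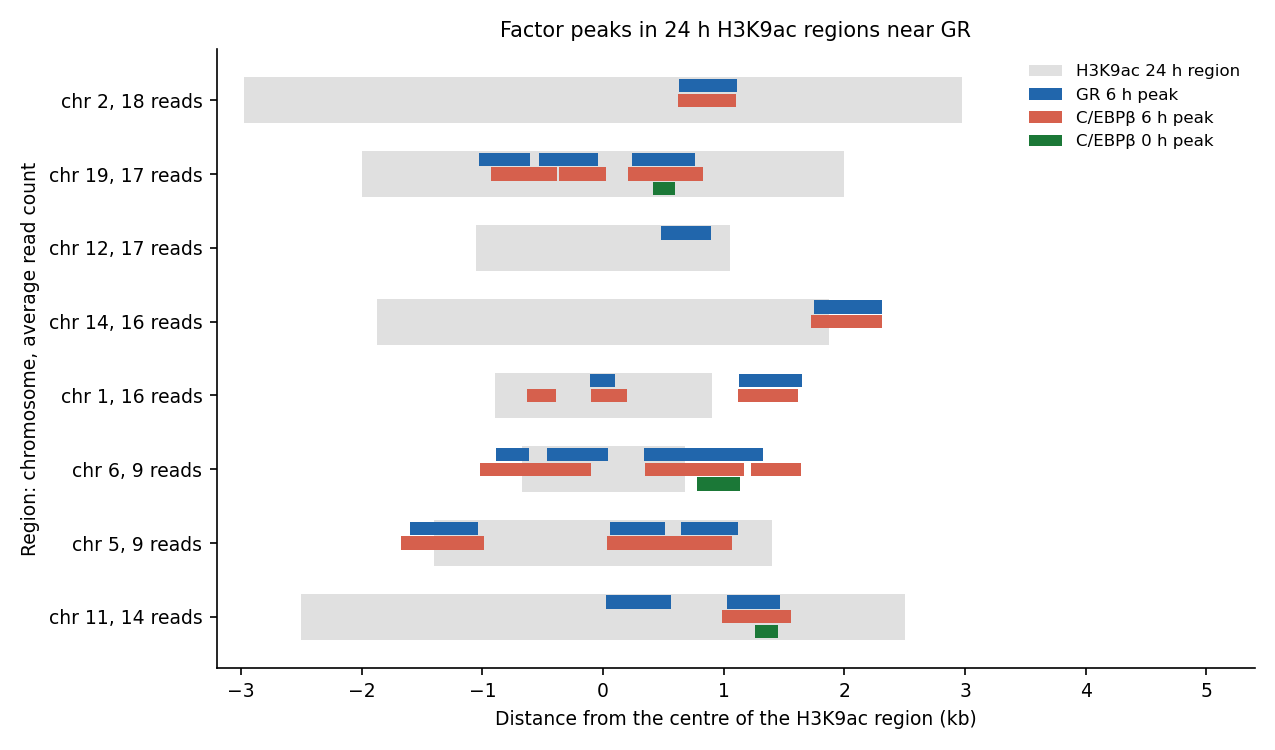
Factor peaks in 8 H3K9ac 24 h regions near GR, those with the highest average read count or with most GR peaks. The x axis is the distance in kb from the centre of the region; grey bars are the acetylated regions, and blue, red and green bars the GR 6 h, C/EBPβ 6 h and C/EBPβ 0 h peaks. Most GR peaks are matched by a C/EBPβ 6 h peak at the same place, and several lie off the centre or across the edge.

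The regions with most H3K9ac show these arrangements one by one, as the map of factor peaks in 8 regions displays. The highest average read count, 18 reads, belonged to chr2:160493000-160498950 (mm8), a region of 5950 bp with 1 GR peak of 63 reads and a C/EBPβ 6 h peak of 43 reads whose extent almost matched it. The region chr19:17014850-17018850, with 17 reads, held 3 GR peaks of 103, 15 and 13 reads. It also held 3 C/EBPβ 6 h peaks of 33, 32 and 16 reads and a C/EBPβ 0 h peak of 19 reads, so the order of GR heights was not that of C/EBPβ heights within it. The region chr12:92282950-92285050, also with 17 reads, had 1 GR peak of 58 reads and no listed C/EBPβ peak of either time. High H3K9ac was thus listed both with and without C/EBPβ beside GR.

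The other named regions differed in where GR lay. In chr14:46860900-46864650, with 16 reads, the GR peak of 86 reads reached across the edge and was centred 155 bp outside the region, on a C/EBPβ 6 h peak of 65 reads. In chr1:40052250-40054050, with 16 reads, a GR peak of 13 reads lay at the middle and a higher one of 33 reads lay beside the region at a gap of 223 bp. The other 2 regions with 3 GR peaks were low in H3K9ac. The region chr6:12407350-12408700 had 9 reads, GR peaks of 60, 15 and 13 reads, and C/EBPβ 6 h peaks of 69, 35 and 20 reads. The region chr5:16379650-16382450 also had 9 reads and 3 weak GR peaks of 14, 12 and 12 reads, with overlapping C/EBPβ 6 h peaks of 62 and 24 reads. The 3 regions with 3 GR peaks thus differed widely in H3K9ac. In chr11:65180450-65185450, with 14 reads, the higher of 2 GR peaks, of 74 reads, lay on C/EBPβ peaks of 73 reads at 6 h and 15 reads at 0 h, and the lower, of 12 reads, lay apart from any listed C/EBPβ peak.

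Along the 24 h regions, GR peaks were not concentrated at the centre. Each region was divided along its length into 3 equal parts, and the centre of the overlapping GR peak was placed in the central part, in an outer part or outside the region. Of the 285 overlapping pairs, 82 (28.8%, 23.8 to 34.3%) had the GR centre in the central part, 152 (53.3%, 47.5 to 59.0%) in an outer part and 51 (17.9%, 13.9 to 22.8%) just outside. Even placement along a region would put about 1 in 3 centres in the central part. Of the 234 centres inside a region, 35.0% (29.2 to 41.4%) were in the central part, close to that share, and 66 (28.2%) were under 250 bp from the edge.

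**Figure D2:**
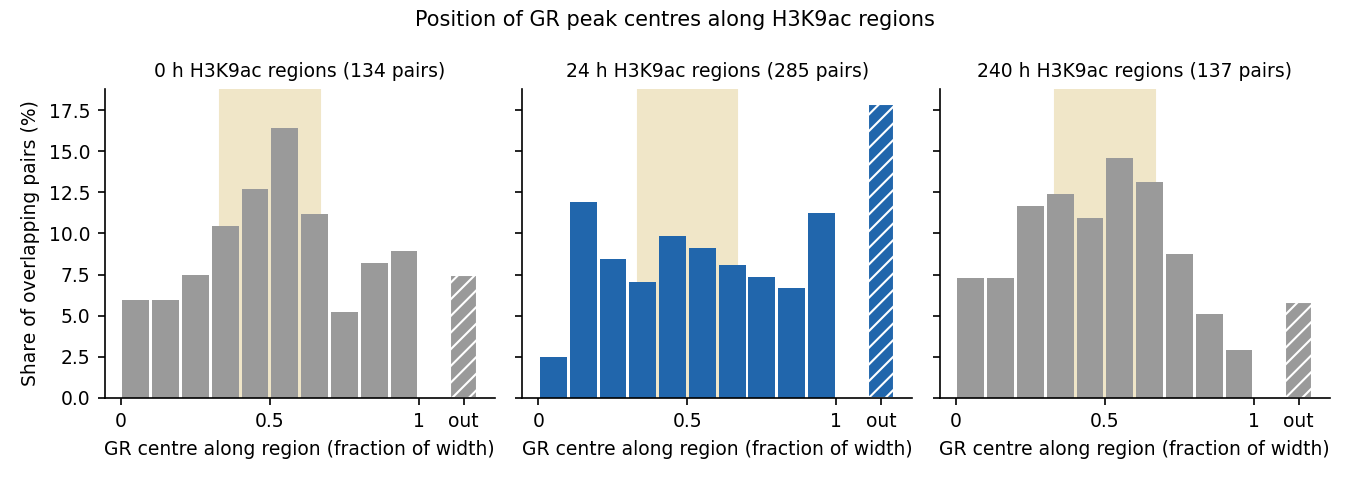
Position of GR peak centres along the H3K9ac regions they overlap, for the 0, 24 and 240 h lists. The x axis is the fraction of the region's width, with centres outside the region in the hatched bar, and the y axis is the share of overlapping pairs in percent; shading marks the central of 3 equal parts. The 24 h bars have no maximum at the middle, and 17.9% lie outside, while the 0 h and 240 h bars are highest at the middle.

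GR peaks in the other H3K9ac lists were placed more centrally. The share of GR centres in the central part was 44.0% (35.9 to 52.5%, 59 of 134 pairs) at 0 h, 28.8% at 24 h and 44.5% (36.5 to 52.9%, 61 of 137 pairs) at 240 h. Since the choice used the positions of GR peaks and 24 h regions, these shares are given as a description, with no test of their difference. Of centres inside a region alone, the central part held 47.6% at 0 h, 35.0% at 24 h and 47.3% at 240 h. Centres outside the overlapped region made up 7.46% at 0 h, 17.9% at 24 h and 5.84% at 240 h. The plot of GR centres along the regions shows the same contrast in finer steps.

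This placement moved with the FDR and the width of the regions. Of overlapping pairs in regions with an FDR of 0, the GR centre was in the central part in 50% (40.4 to 59.6%) of the 0 h pairs, 40.5% (31.9 to 49.8%) of the 24 h pairs and 48.1% (37.6 to 58.9%) of the 240 h pairs. In regions of higher FDR it was there in 26.5% (14.6 to 43.1%) of the 0 h pairs, 21.3% (15.8 to 27.9%) of the 24 h pairs and 39.3% (27.6 to 52.4%) of the 240 h pairs. The 24 h share was the lowest in both classes, with intervals that overlapped those of 0 h. Regions of FDR 0 made up 68.4% of the 0 h, 33.2% of the 24 h and 58.0% of the 240 h regions near GR.

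The 24 h share was also the lowest in each class of width. In regions under the median width of the 24 h list, the central share was 23.3% (11.8 to 40.9%) of the 0 h pairs, 10.8% (5.32 to 20.6%) of the 24 h pairs and 43.6% (29.3 to 59.0%) of the 240 h pairs. In wider regions it was 50% (40.6 to 59.4%) of the 0 h pairs, 34.1% (28.1 to 40.6%) of the 24 h pairs and 44.9% (35.4 to 54.8%) of the 240 h pairs. With GR peaks at or above the median height alone, it was 48.3% (35.9 to 60.8%) of the 0 h pairs, 29.4% (23.5 to 36.0%) of the 24 h pairs and 40.8% (30.4 to 52.0%) of the 240 h pairs. Among the 24 h regions near GR, those with an FDR of 0 had a median width of 2500 bp and those above it 1400 bp.

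C/EBPβ peaks had a like share in the central part of these regions. Of the 255 overlapping pairs of a C/EBPβ 6 h peak and a 24 h region near GR, 75 (29.4%, 24.2 to 35.3%) had the C/EBPβ centre in the central part. In the other 24 h regions this was 83 of 228 pairs (36.4%, 30.4 to 42.8%). The difference of -6.99 points (-15.3 to 1.38) is given as a description without a test. In 261 of the 275 regions near GR with C/EBPβ at 6 h, a C/EBPβ 6 h peak overlapped the GR peak itself. The share of 29.4% thus largely repeats the placement of GR.

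C/EBPβ at 6 h lay near most of the regions. It was listed at a gap under 1000 bp from 275 of the 346 regions near GR (79.5%, 74.9 to 83.4%) and from 294 of the 1283 other 24 h regions (22.9%, 20.7 to 25.3%), against 34.9% of all 24 h regions. The difference was 56.6 points (51.4 to 61.1). In 261 of the 275 regions (94.9%) a C/EBPβ 6 h peak overlapped the GR peak itself. The share can therefore be read against that of GR peaks in general, of which 66.6% overlapped a C/EBPβ 6 h peak wherever they lay.

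Within the limit of 1000 bp, the share was much the same with and without overlap of GR. Among the 267 regions that overlapped GR, 79.8% were near C/EBPβ at 6 h, and among the 79 beside it 78.5%. Among the 68 regions with a gap of 1000 to 1999 bp to the nearest GR peak it was 29.4% (19.9 to 41.1%). It was 23.2% of the 125 regions at 2000 to 4999 bp and 27.7% of the 119 at 5000 to 9999 bp. The step at 1000 bp is built in, since the same limit defines nearness to C/EBPβ and most C/EBPβ peaks near these regions lay on the GR peak. On neither side of it did the shares follow the distance.

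The regions near GR were wider than the rest. Their median width was 1750 bp (quartiles 1200 and 2500), against 1250 bp (1025 and 1775) for the other 24 h regions. A wider region more easily meets a GR peak within 1000 bp, so the choice itself favours width. Among 0 h regions the medians were 1850 bp near GR and 1450 bp elsewhere, and among 240 h regions 1800 and 1600 bp. Per kb of region, the 24 h regions near GR held 0.353 C/EBPβ 6 h peaks and the others 0.114. For C/EBPβ at 0 h the densities in the same 24 h regions were 0.0983 and 0.0320 peaks per kb. Among narrower regions alone, those under the median width of the 24 h list, the difference in the share near C/EBPβ at 6 h was 58.2 points (48.3 to 66.1), and with C/EBPβ centres counted within 1000 bp of the region's centre it was 41.9 points (36.3 to 47.4).

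Several C/EBPβ peaks in 1 region were also more common near GR. Of the 346 regions, 212 had 1 C/EBPβ 6 h peak, 50 had 2, 11 had 3 and 2 had 4. With 2 or more were 63 of the regions near GR (18.2%, 14.5 to 22.6%) and 39 of the other 24 h regions (3.04%, 2.23 to 4.13%). This excess is in part built in. The choice gave each of the former a GR peak, and in 261 of the 275 regions above a C/EBPβ peak lay on it. The regions near GR were also wider, as given above.

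C/EBPβ of undifferentiated cells was near fewer of them. It was listed near 94 of the 346 regions (27.2%, 22.8 to 32.1%) and near 95 of the other 1283 (7.40%, 6.10 to 8.97%), against 11.6% of all 24 h regions. The difference was 19.8 points (15.1 to 24.9). In 83 of the 94 regions (88.3%) a C/EBPβ 0 h peak overlapped the GR peak. The share of 27.2% can therefore also be read against that of all GR peaks, of which 26.2% overlapped a C/EBPβ 0 h peak. Regions near C/EBPβ in the 6 h list alone were the largest class. Of the regions near GR, 182 (52.6%, 47.3 to 57.8%) were near C/EBPβ in the 6 h list alone, 93 (26.9%) in both lists, 70 (20.2%, 16.3 to 24.8%) in no C/EBPβ list and 1 in the 0 h list alone. The other 24 h regions had 205 (16.0%) in the 6 h list alone, 89 (6.94%) in both, 983 (76.6%) in none and 6 in the 0 h list alone.

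Among regions with C/EBPβ at 6 h, no difference in its listing at 0 h was detectable by nearness to GR. Of the regions with C/EBPβ at 6 h, 33.8% (28.5 to 39.6%) of the 275 near GR and 30.3% (25.3 to 35.8%) of the 294 others also had it at 0 h. The difference was 3.55 points (-4.10 to 11.2). The C/EBPβ 0 h list is shorter than the 6 h list, and without read totals that cannot be told apart from a difference in depth.

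**Figure D3:**
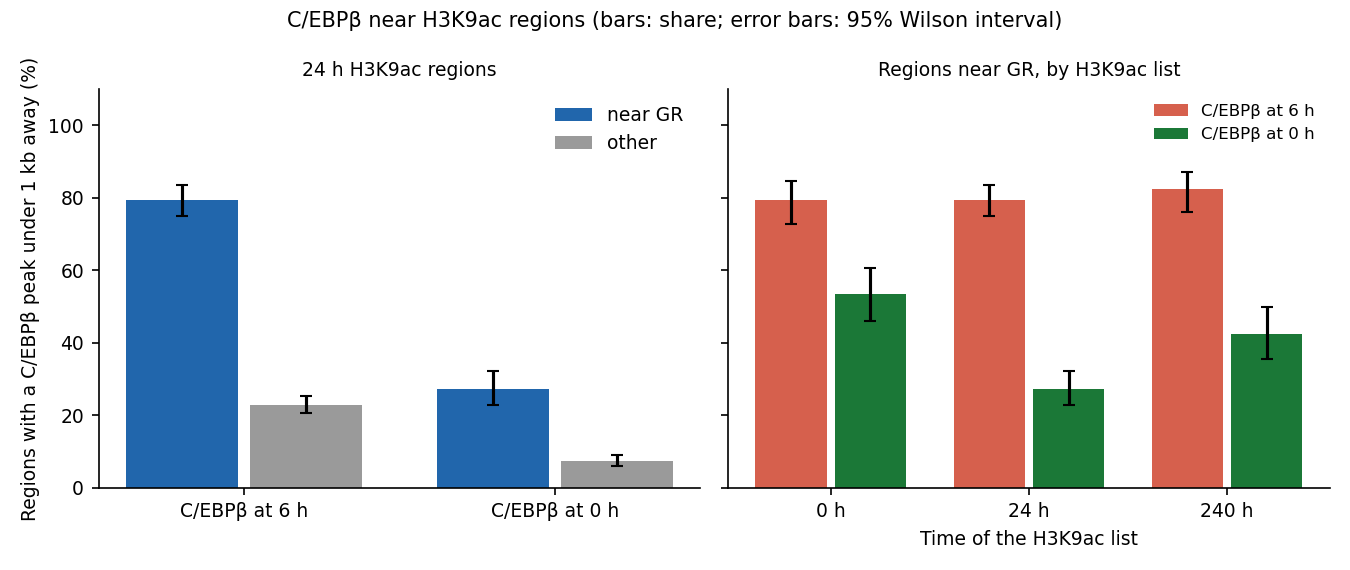
Share of H3K9ac regions with a C/EBPβ peak at a gap under 1 kb, in percent, with 95% Wilson intervals as error bars. Left, 24 h regions near GR (blue) and the other 24 h regions (grey) for C/EBPβ at 6 h and 0 h; right, regions near GR in the 0, 24 and 240 h H3K9ac lists for C/EBPβ at 6 h (red) and 0 h (green). C/EBPβ at 6 h is near 79.3 to 82.3% of regions near GR in all 3 lists, while C/EBPβ at 0 h is lowest at 24 h, with 27.2%.

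Against regions chosen by the same GR rule in the other H3K9ac lists, the 24 h regions were lower for C/EBPβ at 0 h, and their share for C/EBPβ at 6 h differed by less than counting error. A C/EBPβ 0 h peak lay near 53.4% (46.0 to 60.7%, 93 of 174) of the 0 h regions near GR, 27.2% of the 24 h ones and 42.5% (35.6 to 49.8%, 77 of 181) of the 240 h ones. The 24 h share differed by -26.3 points (-34.8 to -17.4) from 0 h and by -15.4 points (-23.9 to -6.84) from 240 h. With a gap to GR under 5000 bp these differences were -10.4 points (-16.2 to -4.73) and -4.22 points (-9.67 to 1.12). With the stronger GR peaks alone they were -15.4 points (-27.5 to -3.38) and -17.9 points (-28.9 to -6.725). The difference from 240 h was -7.18 points (-15.0 to 0.162) with the stronger C/EBPβ peaks alone. For C/EBPβ at 6 h the 24 h share differed by 0.169 points (-6.87 to 7.86) from 0 h and by -2.84 points (-9.52 to 4.51) from 240 h, as the plot of shares by H3K9ac list shows.

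The comparison was repeated over GR peaks, where the width of regions plays no part. Of the 345 GR peaks near 24 h regions, 82 (23.8%, 19.6 to 28.5%) overlapped a C/EBPβ 0 h peak. The share was 43.9% (36.6 to 51.4%) of the 171 GR peaks near 0 h regions and 34.3% (27.7 to 41.5%) of the 178 near 240 h regions. The 24 h share differed by -20.1 points (-28.7 to -11.4) and by -10.5 points (-18.9 to -2.38) from these. GR peaks near 24 h regions were also higher, as given below, and the sets were not matched for height. With the stronger GR peaks alone the differences were -12.0 points (-24.4 to -0.550) from 0 h and -13.7 points (-25.0 to -2.84) from 240 h. With the stronger C/EBPβ peaks alone the difference from 240 h was -5.41 points (-12.9 to 1.44), within counting error. Of the 3314 GR peaks near no listed H3K9ac region, 25.1% overlapped a C/EBPβ 0 h peak, close to the 24 h share. No GR peak was near both a 24 h and a 0 h region, and 1 was near both a 24 h and a 240 h region. The H3K9ac lists were each called as enriched relative to another time, which can by itself leave few shared places.

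Set against the rest of the GR list, GR peaks near 24 h regions more often overlapped C/EBPβ at 6 h. The shares were 262 of 345 (75.9%, 71.2 to 80.2%) near 24 h regions and 2406 of 3662 (65.7%, 64.1 to 67.2%) elsewhere, a difference of 10.2 points (5.22 to 14.7). Near 0 h regions the share was 74.3% and near 240 h regions 77.0%, so a higher share was not particular to the 24 h list. Near no listed H3K9ac region it was 64.6%. The difference of 10.2 points was not present at all heights. With the GR list split into 4 classes of height, it was -6.39 points (-19.3 to 5.63) in the lowest class, 21.9 points (9.73 to 29.7) in the next, 9.67 points (-1.71 to 18.8) in the one above and 9.60 points (2.08 to 15.9) in the highest. For C/EBPβ at 0 h the shares were 23.8% and 26.5%, against 26.2% of all GR peaks, and the difference of -2.69 points (-7.13 to 2.27) was within counting error. Among GR peaks that overlapped C/EBPβ at 6 h, 31.3% (26.0 to 37.1%) of those near 24 h regions and 39.7% (37.7 to 41.6%) of the others had a C/EBPβ 0 h peak too, a difference of -8.35 points (-14.0 to -2.19). That comparison was not among those first chosen, was run under no alternative and did not take GR height into account. Of all the other GR peaks, 32.2% in the lowest class of height and 19.9% in the highest overlapped C/EBPβ at 0 h. Near 24 h regions it was 23.3% and 23.6%. Where GR and C/EBPβ 6 h peaks overlapped, their centres were a median of 55 bp apart near 24 h regions and 50 bp apart elsewhere.

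GR peaks near 24 h regions were high. Their median height was 22 reads (quartiles 15 and 36), against 16 reads (13 and 23) for the other 3662 GR peaks. Near 0 h regions the median was 15 reads and near 240 h regions 16 reads. The median of the authors' fold enrichment was 9.31 near 24 h regions and 7.77 elsewhere. GR height and the H3K9ac read count ranked the regions differently. Across the 346 regions, Spearman's rho between the highest GR peak and the average read count was 0.08, given as a description. It was 0.19 between GR height and width.

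**Figure D4:**
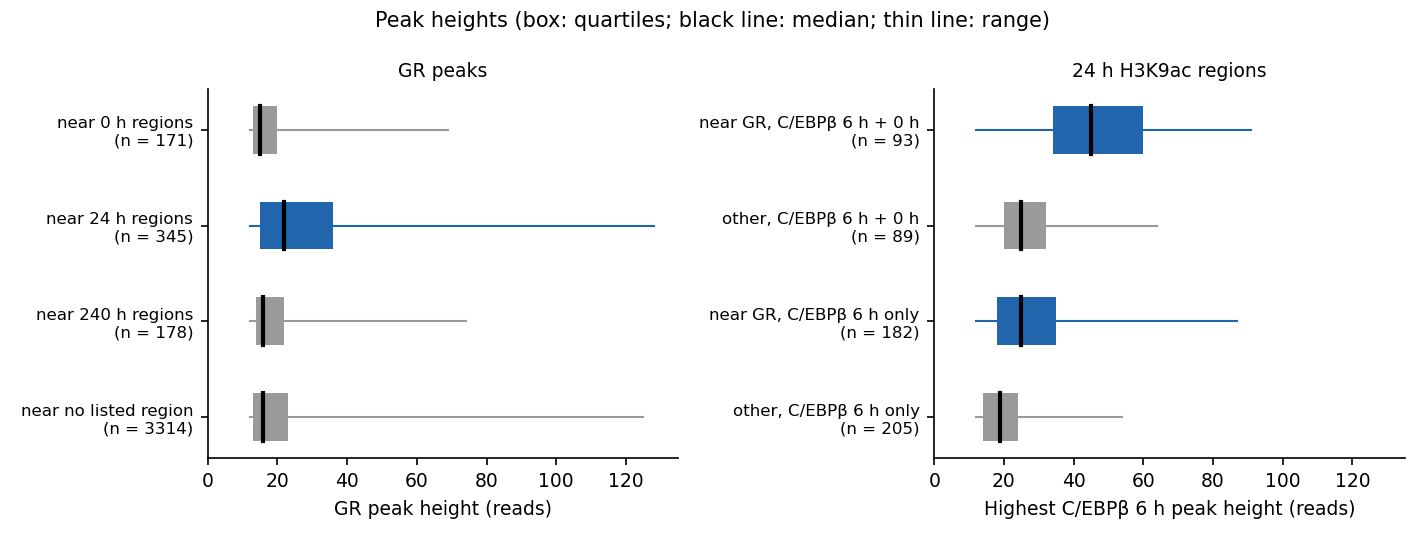
Peak heights in reads, on the x axis, as given by the authors; boxes span the quartiles, black lines are medians and thin lines the range. Left, GR peaks near 0, 24 and 240 h H3K9ac regions and near none; right, the highest C/EBPβ 6 h peak near 24 h regions with and without GR, by listing of C/EBPβ at 0 h. GR peaks near 24 h regions have a median of 22 reads, against 15 or 16 in the other classes.

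The 3 regions with the highest GR peaks were near C/EBPβ at 6 h only. The highest GR peak, of 128 reads, lay in chr19:21664850-21666600 and 679 bp from a second acetylated region, chr19:21666950-21668900, both with an average read count of only 8 reads. Its C/EBPβ 6 h peak had 36 reads. A GR peak of 120 reads lay in chr17:3173150-3181200, a region of 8050 bp with 12 reads, on a C/EBPβ 6 h peak of 46 reads. All 3 regions lacked a listed C/EBPβ 0 h peak. This did not hold for high GR peaks in general. Of the 81 regions whose highest GR peak had 41 to 128 reads, 25.9% were near C/EBPβ at 0 h, against 27.2% of all 346.

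The highest C/EBPβ peak of a region was higher near GR, too. Among 24 h regions with C/EBPβ at 6 h, the highest such peak had a median of 31 reads near GR and 20 reads in the others. With 2 or more C/EBPβ 6 h peaks were 18.2% of all regions near GR and 3.04% of the others. Taking the highest of several peaks can raise the value by construction. Where C/EBPβ was also listed at 0 h the medians were 45 and 25 reads, and where it was listed at 6 h only, 25 and 19 reads. The highest of the peaks listed at 6 h only had 87 reads and lay in chr5:66850900-66853000 with a GR peak of 115 reads. Another of 64 reads lay in chr13:5545950-5547100, where GR had 17 reads. Such sites ranged from 12 to 87 reads, so not all of them were close to the lowest listed height.

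The 70 regions with GR and no C/EBPβ peak at either time were the counterpart. Their highest GR peak had a median of 18.5 reads, against 25 reads in the 182 regions with C/EBPβ at 6 h only and 24 reads in the 93 with it at both times. The share near C/EBPβ at 6 h was 68.8% of the 93 regions whose highest GR peak had 12 to 15 reads and 86.4% of the 81 regions with 41 to 128 reads. GR without C/EBPβ was not always weak. Besides the chromosome 12 region above, chr6:91506150-91510450 had a GR peak of 61 reads and an average H3K9ac read count of 12. The region chr10:27076000-27079000 had a GR peak of 54 reads and an average read count of 8.

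The regions near GR were frequent among the most acetylated of the 24 h list. An average read count of 13 or more was held by 33 of them (9.54%) and by 25 of the other 24 h regions (1.95%), so that 56.9% of the 58 regions at that level were near GR. Of the 607 regions with 9 reads, 16.1% were near GR. The lowest FDR step, 0, was held by 115 of the 346 (33.2%, 28.5 to 38.4%) and by 172 of the 1283 others (13.4%, 11.7 to 15.4%), against 17.6% of all 24 h regions. In the 0 h list it was held by 68.4% near GR and 49.7% elsewhere, and in the 240 h list by 58.0% and 45.0%. An excess near GR was thus not particular to 24 h. The 24 h regions near GR with an FDR of 0 were also wider, with a median of 2500 bp against 1400 bp, and the choice favours width. The median read counts at 24 h were close, with 10 reads near GR and 9 reads in the others. Read count and FDR come from the list that the choice used and are given without a test.

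**Figure D5:**
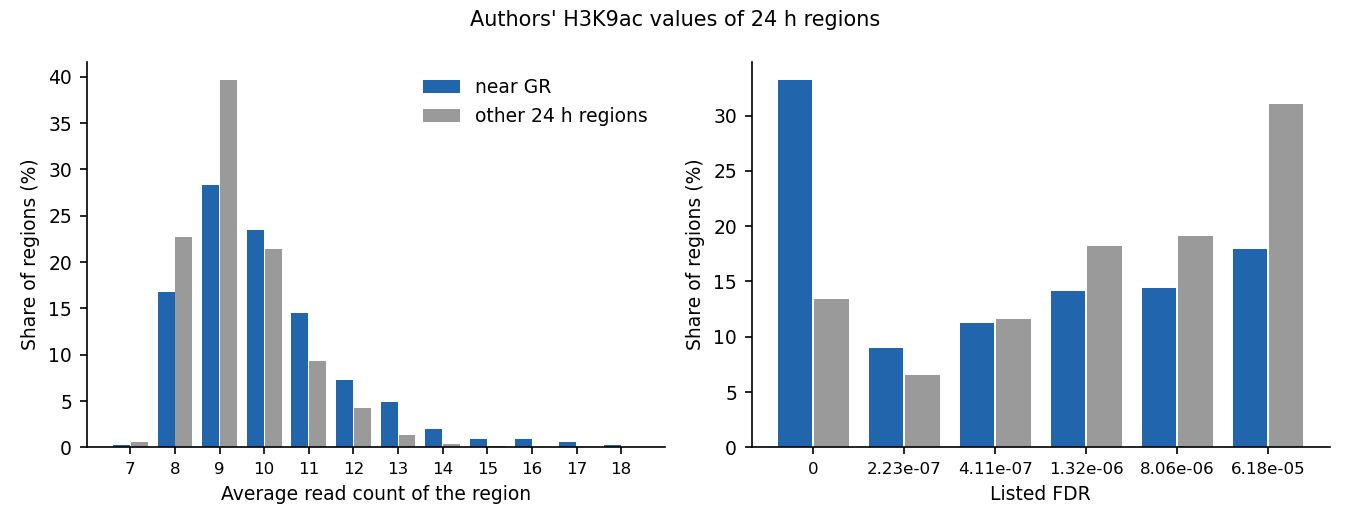
The authors' H3K9ac values of the 346 regions near GR (blue) and the 1283 other 24 h regions (grey). The x axes are the average read count and the listed FDR, shown as steps, and the y axes the share of each set in percent. An FDR of 0 is held by 33.2% of the regions near GR and 13.4% of the others.

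Within the regions near GR, the share with an FDR of 0 varied with the overlap of GR and with C/EBPβ. An FDR of 0 was held by 38.6% of the 267 regions that overlapped GR and 15.2% of the 79 beside it, with median widths of 1800 and 1300 bp. By C/EBPβ class it was 43.0% (33.4 to 53.2%) with both times, 28.6% (22.5 to 35.5%) with 6 h alone and 31.4% (21.8 to 43.0%) with neither. These shares too are descriptions without a test. In the other 24 h regions the same classes had 22.5%, 18.5% and 11.6%.

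Few of the regions had a neighbour in another H3K9ac list. A 0 h region lay at a gap under 10 kb from 20 of the 346 (5.78%, 3.77 to 8.76%) and from 111 of the 1283 others (8.65%, 7.23 to 10.3%). The difference was -2.87 points (-5.48 to 0.428). A 240 h region lay so near 23 of the regions near GR (6.65%) and 102 of the others (7.95%), a difference of -1.30 points (-4.01 to 2.11). Both differences were within counting error. That neighbours were few can follow from the lists, each called as enriched relative to another time.

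The regions were spread over all chromosomes. The share of 24 h regions near GR ran between 12.7% (7.02 to 21.8%) on chromosome 9 and 33.3% (21.4 to 47.9%) on chromosome 19, and chromosome 13 held most of them, 30 of its 107. On a grid of 100 kb windows, the 346 regions fell into 280 windows, of which 228 held 1. The densest window, on chromosome 18, held 5 regions near GR among its 6 24 h regions, with 5 GR peaks, 7 C/EBPβ peaks at 6 h and 3 at 0 h. Another 4 windows held 4 each, 3 of them on chromosome 13, starting at 30800000, 90300000 and 110400000, and 1 on chromosome 12, starting at 81700000. In these 5 windows, 1 H3K9ac 0 h region and no 240 h region was listed.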

How the data were processed

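Per the labels' protocols, the authors used Solexa reads of 36 bp and aligned them to mm8, a mouse genome build, with ELAND, which allowed 2 mismatches. Only uniquely placed reads counted, with 1 read per start coordinate, which caps the highest peaks. The sources used here do not give the peak caller, its threshold or any use of input. Per the file headers, the deposited factor lists give a fold enrichment, which is a ratio to an undescribed background, and a peak height, a read signal. The deposited H3K9ac lists give an average read count, also a signal, and an FDR (a q-value of the authors' differential call) in 6 steps at 24 h, of which the lowest is 0. All H3K9ac bounds lay on a 50 bp grid. Input libraries have no peak list and were not used.

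Positions were joined with Python 3.11.15, numpy 2.4.6 and pandas 2.3.3, and figures drawn with matplotlib 3.10.9. A region was near a peak at a gap under 1000 bp, and peaks overlapped from 1 bp. A peak's centre is the middle of its listed bounds, since no summit is listed. A difference was called where its Newcombe interval left out 0. Differences in the position of GR or C/EBPβ, in FDR and by number of GR peaks are descriptions with no call. Intervals treat regions as independent, although some share a GR peak. The joining code was tested on simulated lists. Coordinates are as deposited, on mm8. No genome of that build was given, so neither sequences nor genes are named.

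The regions, comparisons and alternatives were chosen with earlier results of these data known. Named regions are the 5 with the highest average read count, the 5 with most GR peaks, the 3 with the highest GR peak, the 3 with the highest GR peak and no C/EBPβ at either time, the 3 with the highest C/EBPβ 6 h peak and no C/EBPβ at 0 h, the 3 on each side of the limit, and the 100 kb windows with most regions, with ties. Ties in read count went by FDR and GR height, which left out 1 of 3 regions with 16 reads. Ties in GR peaks went by read count and GR height, which left out all but 2 of the 31 regions with 2 GR peaks. Alternatives covered the distance to GR, stronger GR or C/EBPβ peaks (at or above the median height), regions of FDR 0, region width, the overlap of GR with C/EBPβ, and autosomes alone. Classes of GR height, and width and FDR classes for the position of GR, were added after the data had been seen.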

Additional observations from a re-analysis of the deposited data

Results flagged for a closer look

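The contrast in C/EBPβ between regions near GR and the other regions of the same list was smaller at 24 h than at 240 h. For C/EBPβ at 6 h the odds ratio was 13.03 in the 24 h list and 37.98 in the 240 h list, a ratio of 0.343 (95% interval 0.211 to 0.558). For C/EBPβ at 0 h it was 4.66 in the 24 h list and 9.81 in the 240 h list, a ratio of 0.476 (0.306 to 0.739). The shares behind the first were 79.5% near GR and 22.9% elsewhere at 24 h, and 82.3% near GR and 10.9% elsewhere at 240 h. Those behind the second were 27.2% near GR and 7.40% elsewhere at 24 h, and 42.5% near GR and 7.02% elsewhere at 240 h. The lists thus differed mainly in the other regions for C/EBPβ at 6 h and mainly near GR for C/EBPβ at 0 h. The latter difference lost its call under some alternatives, as given below. Against the 0 h list the ratios were 0.949 (0.591 to 1.53) for C/EBPβ at 6 h and 0.799 (0.513 to 1.24) for C/EBPβ at 0 h, both within counting error. The intervals treat the regions as independent and cover counting error only.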

How the results depend on the processing

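Under the alternatives first chosen, 40 differences kept their direction and their call, 2 lost the call and 2, uncalled, reversed. Among those added after the data had been seen, 16 kept their direction and the side of 0 their interval gave, 8 came to include 0 in their interval and 2 reversed. These counts include the position of GR, which the choice used and which has no call. For it they are a description and no support. The same holds for C/EBPβ near the regions chosen by GR against the other 24 h regions, as given at the end of this section. Of the shares, 6 stayed within their interval and 6 moved. No paired analysis was possible because every group holds 1 library. The unknown depth limits every statement about peaks missing from a list.

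The share of regions with several GR peaks was 5.62% by overlap, 18.6% with a gap under 5000 bp, 5.53% with stronger GR peaks and 13.9% in regions of FDR 0, where 89.6% overlapped GR and 40.5% of GR centres lay in the central part. Wider distances find more peaks and stricter ones fewer by construction.

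For C/EBPβ at 0 h near 24 h minus 240 h regions near GR, the call was lost at -4.22 points with a gap under 5000 bp and at -7.18 points with stronger C/EBPβ peaks; over GR peaks it was lost at -5.41 points with stronger C/EBPβ peaks. For the central position of GR, described without a call, the interval of the 24 h minus 0 h difference of -15.3 points came to include 0 at -12.6 points in narrower regions, -9.46 at FDR 0 and -5.21 above it. That of the 24 h minus 240 h difference of -15.8 points did so at -10.8 points in wider regions, -11.4 with stronger GR peaks and -7.61 at FDR 0. For GR peaks near 24 h regions minus others, overlap with C/EBPβ at 6 h was -6.39 points in the lowest of 4 classes of GR height and 9.67 in the next to highest, both uncalled. With C/EBPβ at 0 h, uncalled throughout, the difference turned to 0.520 points with stronger GR peaks, 2.19 at FDR 0 and 3.69 in the highest class. The cause was not tested for any of these.

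The difference between regions near GR and other 24 h regions ranged between 37.6 and 58.2 points for C/EBPβ at 6 h under the alternatives tried. For C/EBPβ at 0 h it ranged between 13.2 and 24.0 points, and both remained called. Each alternative still set regions chosen for a GR peak against regions without one. Where the chosen regions had C/EBPβ nearby, it sat on the GR peak in 94.9% of cases at 6 h and 88.3% at 0 h. Much of the difference is thus built in, and its persistence is a description and no support.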
